A study of Pyrus pyrifolia with 6 samples.

Results

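Genes that make, move and break down sorbitol and sucrose were compared by RNA sequencing between the fruit skin of bagged and untreated pears of the cultivar Cuiguan (Pyrus pyrifolia). A gene was a member when its description in the deposited table named sorbitol, a polyol transporter, sucrose synthase, sucrose-phosphate, a sucrose transporter, invertase, beta-fructofuranosidase, SWEET or a hexose transporter, and did not name an inhibitor. This rule took 126 of the 42933 listed genes, none of them described as a hexose transporter. The bagged group holds 3 libraries, from fruits enclosed in Kobayashi paper bags, white and single-layer (F-PK2) at 20 days past full bloom, and yellow-white with a double layer at 40 days. The untreated group holds 3 libraries from fruits of the same orchard that were never bagged. All fruits came from trees 6 years old and were sampled 95 days past full bloom. The labels call the libraries biological replicates without giving the number of fruits or trees in each, so p-values measure the spread between these libraries.

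In pear and other woody Rosaceae, sorbitol is the main sugar exported by leaves, and sucrose travels beside it in the phloem. NADP-dependent sorbitol-6-phosphate dehydrogenase makes sorbitol in source tissue, polyol transporters carry it across membranes together with protons, and sorbitol dehydrogenase turns it into fructose in the fruit. Sucrose is rebuilt by sucrose-phosphate synthase, is split by sucrose synthase or by neutral and acid invertases, and crosses membranes through sucrose transporters and through SWEET proteins, which let sugars pass down their gradient. The series itself was made to study russeting, the corky change of the fruit skin, and the sugar genes are described here as a further feature of the same libraries.

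Library totals ran from 15764049 to 19546285 counts, and 29949 to 30749 genes had a count in each library. Replicates differed from each other by more than counting error, with a chi-square of 12 to 20.4 for each degree of freedom. The leading principal component of log2 CPM (counts scaled to library size) took 46.8% of the variance, and on it untreated replicate 3 lay nearest to the bagged libraries. The tissue label was read against marker lists as summed FPKM, the authors' fragment counts scaled to gene length and depth. FPKM totals over all genes were 649300 to 687400 in bagged and 624400 to 654400 in untreated libraries. Suberin markers of cork summed to 44.8 to 58.9 FPKM in bagged and 157 to 256 FPKM in untreated skin, and 10 of the 13 tested of 17 fell. That pattern also took in 2 genes of another acyltransferase, neither of them tested. Epidermis markers summed to 141 to 224 FPKM in bagged and 91.1 to 125 FPKM in untreated skin, with 2 of the 14 tested of 21 higher. Much of that sum was LOC103949661, 3-ketoacyl-CoA synthase 10-like and not called. It had 72.4, 109 and 126 FPKM in bagged, against 62.5, 37.9 and 52.2 FPKM in untreated skin. Fold changes of the tested epidermis markers were positive for 10 and negative for 4. The negative ones were the ANTHOCYANINLESS 2-like LOC103941477 (-0.008) and LOC103932721 (-0.04), the HDG2-like LOC103944524 (-0.60) and the ECERIFERUM 1-like LOC103965506 (-2.23). The last had the largest fold change of the list in size, at no more than 1.10 FPKM in any library, and was not called. Chlorophyll a-b binding genes summed to 727 to 1170 FPKM in bagged and 1048 to 1942 FPKM in untreated skin, the highest in untreated replicate 1, with 0 of the 23 tested of 28 called. Their fold changes were negative for 22 and positive for 1, with a median of -0.66. At an unadjusted edgeR p below 0.05 stood 10 of the 23, all lower, where 15.9% of all genes did. Phloem markers summed to 40.2 to 44.4 FPKM in bagged and 35.3 to 65.6 FPKM in untreated skin, with 0 of the 11 tested of 16 called. Xylem and stone cell markers summed to at most 4.1 FPKM in any library, 7 of the 20 had no count, and 2 could be tested.

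Of the 126 members, 30 had no count in any library, 28 had too few counts to test and 68 were tested. An untested member had at most 32 counts in a library, and a count of 0 allows up to 3 counts, or 0.154 to 0.19 CPM at these depths. Bagged skin held less transcript of 2 polyol transporter genes and 1 sucrose synthase gene than untreated skin, and no member was higher at the threshold. These 3 are 4.41% of the tested members (edgeR, adjusted p below 0.05), beside 2.67% called among all 25139 tested genes, 1.69% lower and 0.971% higher. Less RNA per cell and fewer cells of a type cannot be told apart in these bulk samples. The suberin markers were lower and the epidermis markers higher in sum in every bagged library than in any untreated one. Fold changes of the chlorophyll a-b binding genes were mostly negative, with sums that overlapped. The part of these markers in the members' calls was not tested. The median log2 fold change was -0.08 over the tested members and -0.01 over all tested genes, and 29 members had a positive and 39 a negative value.

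The count of calls depended on single libraries and on the test. Without bagged replicate 2 no member was called by edgeR, 27 members had an unadjusted p below 0.05, and 0.97% of all genes were called. The count was 1 without bagged replicate 1 (0.795% of all genes called) and 1 without untreated replicate 1 (1.19%). It was 4 without bagged replicate 3 (1.65%), 4 without untreated replicate 3 (2.69%) and 2 without untreated replicate 2 (1.15%), all lower. DESeq2 called 12 of 67 members, 5 higher and 7 lower, beside 5.98% of all genes in that test, 3.01% higher and 2.97% lower. Of 93 members with a value in the authors' deposited table, 13 had an adjusted p below 0.05, 5 higher and 8 lower, beside 4.72% of all genes there, 2.36% in either direction alone. At an unadjusted edgeR p below 0.05 stood 27 of the 68 members (39.7%), 12 higher and 15 lower, where 15.9% of all genes did. The CPM of the groups did not overlap for 22 members (32.4%), 11 with bagged above and 11 with bagged below, against 21.7% of all genes, 10.7% above and 11% below. A log2 fold change of at least 1 in size was fitted for 12 members (17.6%), 3 positive and 9 negative, and for 7.12% of all genes.

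**Figure D1:**
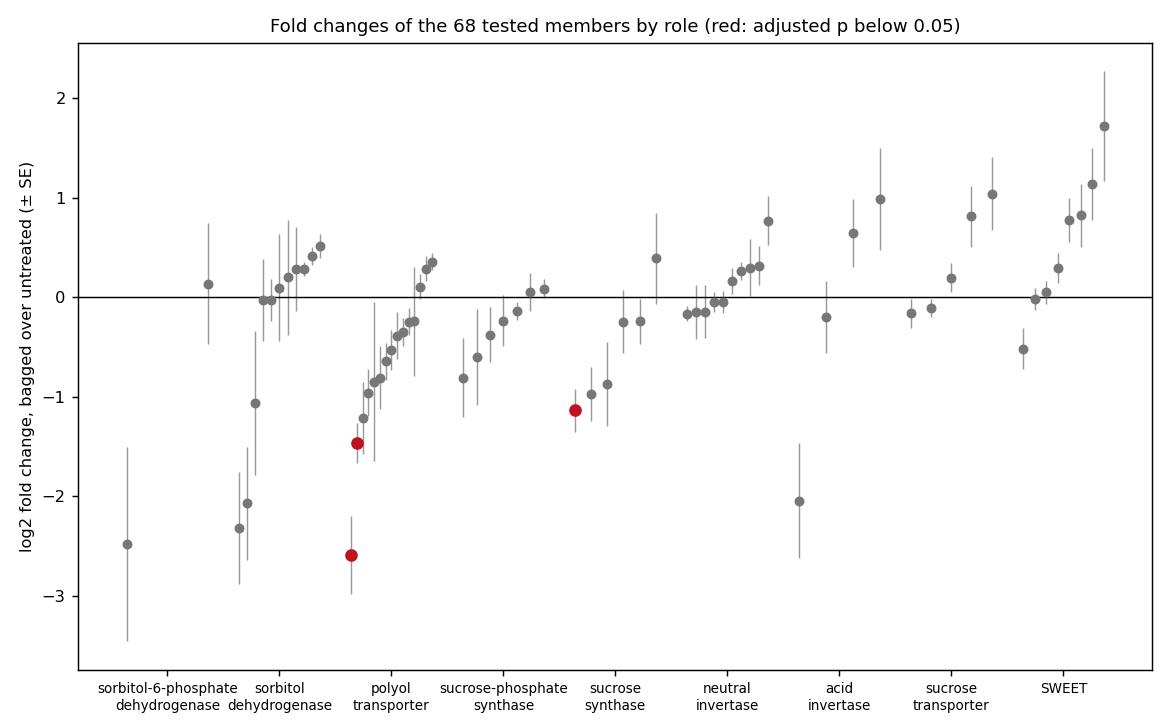
Log2 fold change of bagged over untreated skin (vertical axis, points with SE) for the 68 tested members, grouped by the role named in their description. The 3 red points, called at an adjusted p below 0.05, are 2 polyol transporters and 1 sucrose synthase, and all lie below 0.

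Polyol transporters held 2 of the 3 genes that edgeR called. Of 29 listed genes, 15 were tested, 2 fell (13.3%, beside 16.7% of the 6 tested sucrose synthase genes) and 12 had a negative fold change, with a median of -0.53. LOC103964421, described as putative polyol transporter 1, lies on scaffold NW_008988305.1 from 482570 to 485631 on the plus strand. It had 2.17, 1.13 and 2.23 FPKM in bagged replicates 1 to 3, against 8.07, 17.4 and 7.74 FPKM in untreated replicates 1 to 3. Every bagged library was below every untreated one, and untreated replicate 2 stood above the other untreated libraries. The log2 fold change was -2.59 ± 0.39 (SE, n = 3 per group) with an edgeR adjusted p of 0.0187. The call was lost without bagged replicate 1 (adjusted p = 0.0733) or bagged replicate 2 (0.0614), with fold changes of -2.79 to -2.10 over the 6 libraries left out in turn.

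The second called transporter, LOC103936324, has the same description and lies on scaffold NW_008988804.1 from 150193 to 152739 on the plus strand. It had 4.42, 3.64 and 3.39 FPKM in bagged skin, against 11.3, 12.5 and 7.73 FPKM in untreated skin. The groups did not overlap, and untreated replicate 3 was the lowest of its group. It fell by 1.47 ± 0.20 on the log2 scale (SE, n = 3 per group; edgeR adjusted p = 0.0143). With bagged replicate 2 left out the adjusted p was 0.0576, and with untreated replicate 1 left out it was 0.0524, so neither fit called it. Both calls held with DESeq2 and with limma on FPKM.

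**Figure D2:**
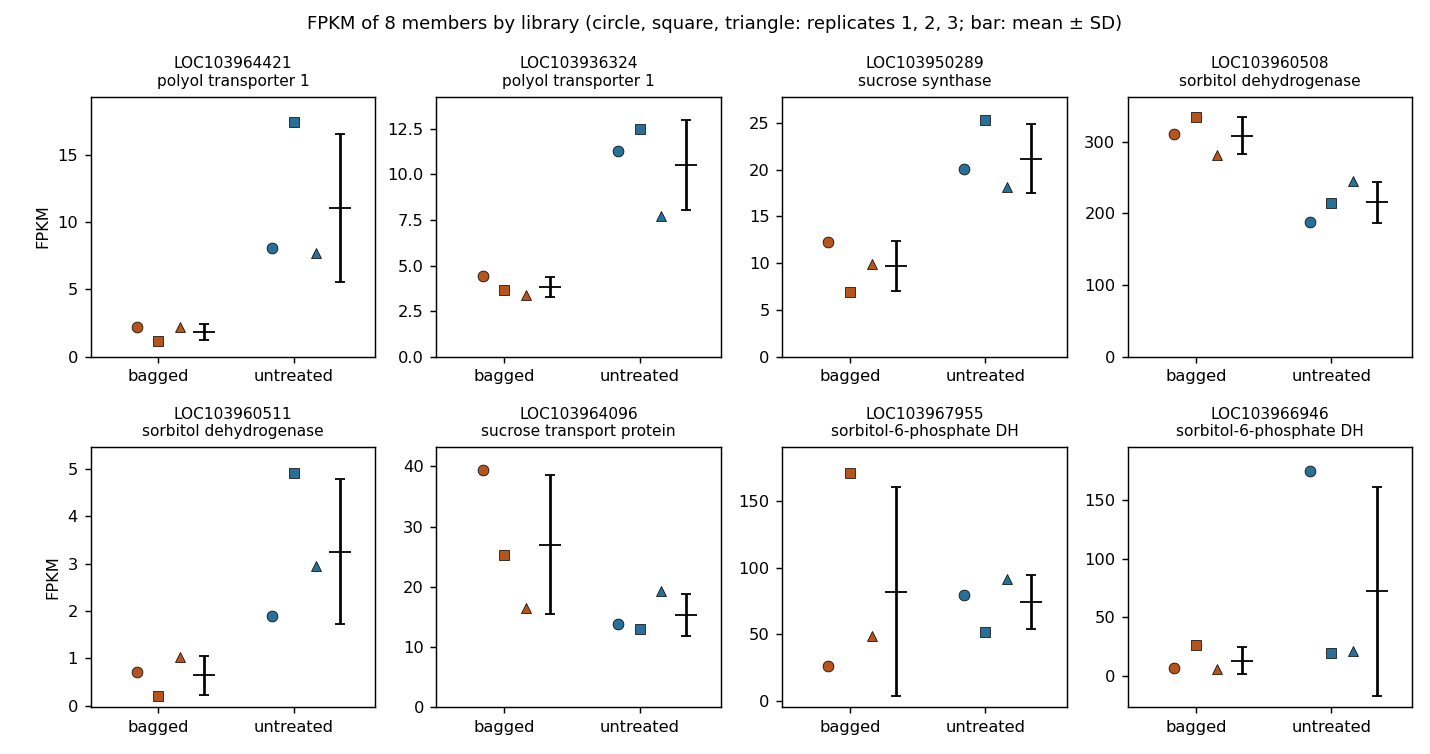
FPKM (vertical axis) of 8 members in each library, bagged left and untreated right, with the mean ± SD of 3 libraries as a black bar. The 2 called transporters and the called sucrose synthase have all bagged libraries below all untreated ones, while each sorbitol-6-phosphate dehydrogenase gene has a single library far above the rest.

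Other transporters had smaller fold changes that did not pass the edgeR test. LOC103964420, putative polyol transporter 1 and the highest of the class, had 57.7, 82.4 and 63.1 FPKM in bagged skin, against 105, 116 and 71.6 FPKM in untreated skin. Bagged replicate 2 lay above untreated replicate 3, so the groups overlapped (log2 fold change -0.53 ± 0.20, edgeR adjusted p = 0.24). LOC103936320, of the same description and chosen after its values were seen, had 14.7, 18.7 and 16.5 FPKM in bagged skin, against 26.4, 32.4 and 19.1 FPKM in untreated skin. Its groups did not overlap (-0.65 ± 0.19, edgeR adjusted p = 0.139), and the adjusted p was 0.0278 with DESeq2 and 0.0358 with edgeR without untreated replicate 3. LOC103936915, less abundant than both called genes, had the largest fold change among the transporters that edgeR did not call. It had 4.72, 2.88 and 2.54 FPKM in bagged skin, against 10.04, 4.21 and 9.15 FPKM in untreated skin. Untreated replicate 2 lay inside the bagged range there (-1.21 ± 0.36, edgeR adjusted p = 0.152), and DESeq2 called it lower (adjusted p = 0.015). All 8 tested genes described as putative polyol transporter 1 had a negative fold change, from -2.59 to -0.53, with a median of -0.90.

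Genes with other transporter descriptions did not all share that sign. The 4 tested polyol transporter 5-like genes ranged from -0.39 to 0.28 and the 3 tested genes described as probable polyol transporter 4 from -0.24 to 0.35. Of these, LOC103934620 was chosen after its values were seen. It had 14.98, 15.07 and 16.06 FPKM in bagged skin, against 11.49, 11.96 and 12.53 FPKM in untreated skin, with no overlap, and missed the threshold (0.35 ± 0.09, edgeR adjusted p = 0.0847). No probable polyol transporter 6 gene had enough counts to test. Summed over the class, transporter FPKM was 248, 243 and 236 in bagged skin, against 323, 335 and 263 in untreated skin. Bagged sums lay below every untreated sum, at 0.789 of the untreated mean.

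Sorbitol dehydrogenase, the enzyme that brings sorbitol into fructose metabolism, was the most abundant class. It held 31.4% to 46.0% of the summed FPKM of all members in each library. Its sum was 642, 706 and 629 FPKM in bagged skin, against 463, 526 and 554 FPKM in untreated skin. Every bagged sum was above every untreated sum, with a mean of 659 ± 41.6 in bagged and 514 ± 46.8 in untreated skin (SD, n = 3 each). No single gene of the class passed the edgeR threshold. Of 14 genes, all described as sorbitol dehydrogenase-like, 11 were tested, 6 with a positive and 5 with a negative fold change, and 3 and 2 of these had an unadjusted p below 0.05.

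The class was led by LOC103960508, on scaffold NW_008988232.1 from 174267 to 175810, with 40.6% to 48.4% of the class sum. It had 311, 334 and 282 FPKM in bagged skin, against 188, 214 and 245 FPKM in untreated skin. The groups did not overlap. The log2 fold change was 0.51 ± 0.12 (SE, n = 3 per group), with an edgeR adjusted p of 0.0714, a range of 0.0501 to 0.186 with 1 library left out, and a DESeq2 adjusted p of 0.00234. LOC103960512 and LOC103933319, picked with their values in view and not by the naming rule, showed the same pattern. LOC103960512 had 132, 132 and 129 FPKM in bagged skin, against 106, 113 and 103 FPKM in untreated skin (0.28 ± 0.07, edgeR adjusted p = 0.0954, DESeq2 0.0261). LOC103933319 had 124, 123 and 138 FPKM in bagged skin, against 87.4, 99.8 and 101 FPKM in untreated skin (0.41 ± 0.09, edgeR adjusted p = 0.0638, DESeq2 0.00541). All 3 genes kept a positive fold change under each of the 14 alternatives. LOC103933317, the other abundant gene of the class, had 64.2, 108 and 62.0 FPKM in bagged skin, against 69.7, 82.6 and 85.5 FPKM in untreated skin, a difference within its spread (-0.03 ± 0.21).

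The largest fold changes of the class belonged to rare genes and had the other sign. LOC103960511 had 0.70, 0.21 and 1.03 FPKM in bagged skin, against 1.89, 4.92 and 2.95 FPKM in untreated skin. The groups did not overlap, and the log2 fold change was -2.32 ± 0.56 (edgeR adjusted p = 0.0833, DESeq2 0.00135). LOC103933320 had 0.08, 0.12 and 0.43 FPKM in bagged skin, against 0.99, 1.05 and 0.72 FPKM in untreated skin. Its groups did not overlap either (-2.07 ± 0.57, edgeR adjusted p = 0.122), and without bagged replicate 3 the adjusted p was 0.0429.

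Position was a feature that the rule did not use. The 14 sorbitol dehydrogenase genes lie in 2 arrays, 6 on scaffold NW_008988232.1 between 161846 and 202023, all on the plus strand, and 8 on scaffold NW_008988633.1 between 107591 and 159238, all on the minus strand. No other listed gene lies within either array. In both arrays the gene with the most negative fold change is rare and the one with the most positive fold change is abundant. Values ran from -2.32 to 0.51 in the first array and from -2.07 to 0.41 in the second. The FPKM of LOC103960511 was 0.227%, 0.0624% and 0.365% of that of LOC103960508 in bagged replicates 1 to 3, against 1.005%, 2.30% and 1.21% in untreated replicates 1 to 3. These shares restate the opposite directions of the 2 genes given above.

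Polyol transporters also stand in arrays, 5 scaffolds with 3 or 4 of them each. On scaffold NW_008988305.1 the called gene LOC103964421 follows LOC103964420 in the order of members. Its FPKM was 3.76%, 1.38% and 3.53% of that of this neighbour in bagged skin, against 7.70%, 15.03% and 10.8% in untreated skin. On scaffold NW_008988804.1 the called gene LOC103936324 had 30.0%, 19.4% and 20.6% of the FPKM of LOC103936320 in bagged skin, against 42.6%, 38.7% and 40.5% in untreated skin. In both pairs the bagged libraries had the smaller shares, which restates the larger fall of the called gene given above. On scaffold NW_008988850.1 LOC103936913, a polyol transporter 5-like gene, had a positive fold change (0.28 ± 0.13) while its 3 neighbours had negative ones, from -1.21 to -0.85. None of these 4 was called by edgeR, and DESeq2 called LOC103936915. The arrays on scaffolds NW_008988312.1 and NW_008988667.1 had no testable gene. Genes in such arrays may be close copies, and how the authors' counting split reads between copies is not given in the sources used here.

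**Figure D3:**
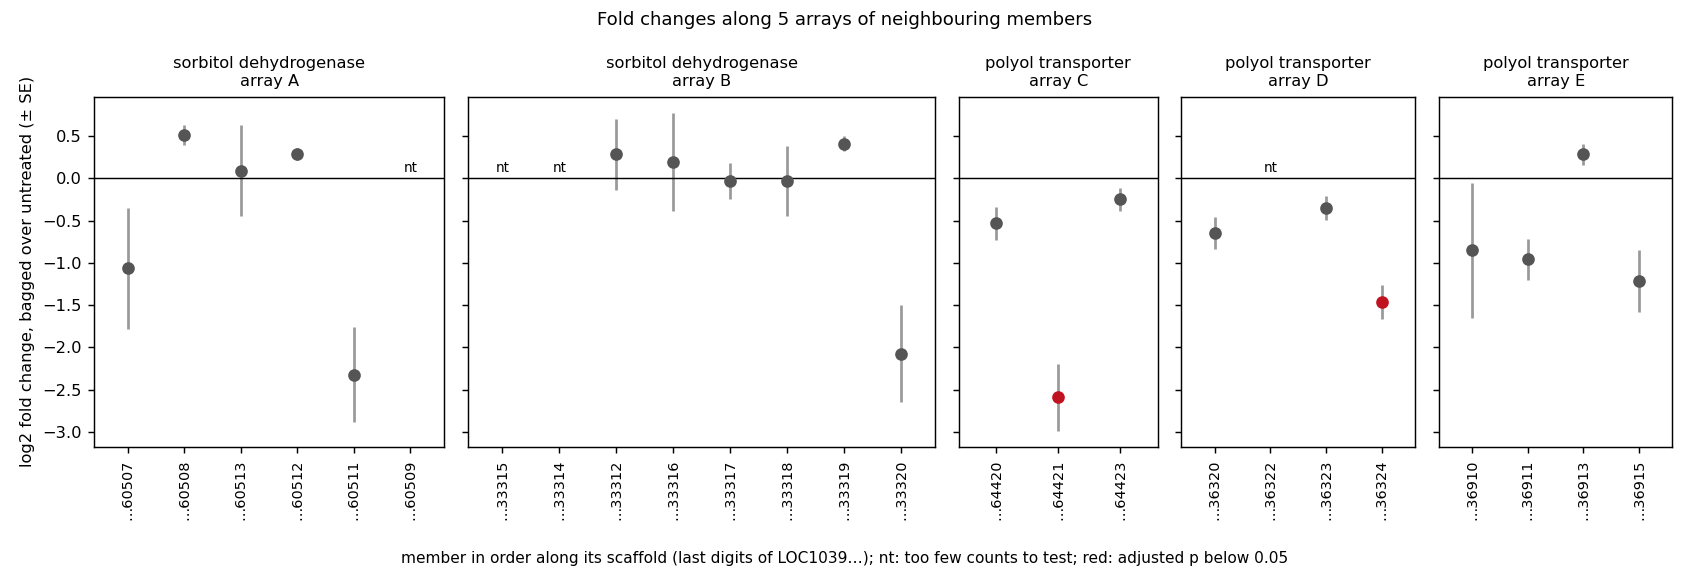
Log2 fold change of bagged over untreated skin (vertical axis, points with SE) for members in their order along 5 scaffolds, with arrays A to E on NW_008988232.1, NW_008988633.1, NW_008988305.1, NW_008988804.1 and NW_008988850.1. Neighbours differ widely within an array, from 0.51 to -2.32 in array A, and the 2 called genes (red) stand beside transporters with smaller fold changes.

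Sorbitol-6-phosphate dehydrogenase, the enzyme of sorbitol synthesis, varied more between replicates than between groups. LOC103967955 had 25.9, 171 and 48.5 FPKM in bagged skin, against 79.2, 51.7 and 91.6 FPKM in untreated skin. Bagged replicate 2 was the highest and bagged replicate 1 the lowest of all 6 libraries. Its log2 fold change was 0.14 ± 0.61 (edgeR adjusted p = 0.945) and became -0.997 without bagged replicate 2. LOC103966946, on scaffold NW_008988365.1 from 361456 to 365304, had 6.70, 26.4 and 5.79 FPKM in bagged skin, against 175, 20.0 and 21.6 FPKM in untreated skin. The value of untreated replicate 1 was far above all others, and the remaining libraries overlapped. The log2 fold change of -2.48 ± 0.97 (edgeR adjusted p = 0.269) became -0.69 without untreated replicate 1, and DESeq2 gave this gene no p-value. Untreated replicate 1 also had the highest sum of chlorophyll a-b binding genes, 1942 FPKM, and bagged replicate 2 the highest among bagged libraries, 1170 FPKM. Their part in these values was not tested. A polyprenol reductase gene overlaps LOC103966946 on the other strand, with 811 counts in untreated replicate 1 and 844 to 1043 in the other libraries. The part of this overlap in the values of LOC103966946 was not tested. The remaining gene, LOC103967952, had too few counts to test.

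Sucrose synthase splits sucrose into fructose and UDP-glucose, the substrate of cellulose and callose synthesis. Of 18 listed genes, 6 were tested, 1 fell and 5 had a negative fold change, with a median of -0.56. The called gene, LOC103950289, described simply as sucrose synthase, lies on scaffold NW_008988110.1 from 573253 to 579239 on the plus strand and held 60.0% to 81.6% of the FPKM of its class. It had 12.2, 6.88 and 9.85 FPKM in bagged skin, against 20.1, 25.3 and 18.1 FPKM in untreated skin. All bagged libraries were below all untreated ones. It fell by 1.14 ± 0.21 on the log2 scale (SE, n = 3 per group; edgeR adjusted p = 0.0393). With 1 library left out, the call held in 1 of 6 fits, that without untreated replicate 3 (adjusted p = 0.0465). The adjusted p was 0.0534, 0.0669 and 0.1003 on leaving out bagged replicates 1, 2 and 3 in turn, and 0.1001 and 0.106 on leaving out untreated replicates 1 and 2, and over these 5 fits the fold change ran from -1.34 to -0.94. The authors' deposited table gives it a log2 fold change of -1.13 and an adjusted p of 1.25e-05.

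The other sucrose synthase genes were rare. LOC103935319, sucrose synthase-like, had 0.61, 0.46 and 0.50 FPKM in bagged skin, against 0.82, 1.24 and 1.02 FPKM in untreated skin. Its groups did not overlap, and it missed the threshold (-0.97 ± 0.27, edgeR adjusted p = 0.129). The summed FPKM of the class was 17.71, 11.47 and 13.98 in bagged skin, against 25.07, 31.04 and 24.97 in untreated skin, so that every bagged sum was below every untreated one. The ratio of the mean sums was 0.532, the lowest of the 9 classes. The called gene LOC103950289 held 60.0% to 81.6% of these sums, so they largely restate its fall and do not show a fall of the rare genes.

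**Figure D4:**
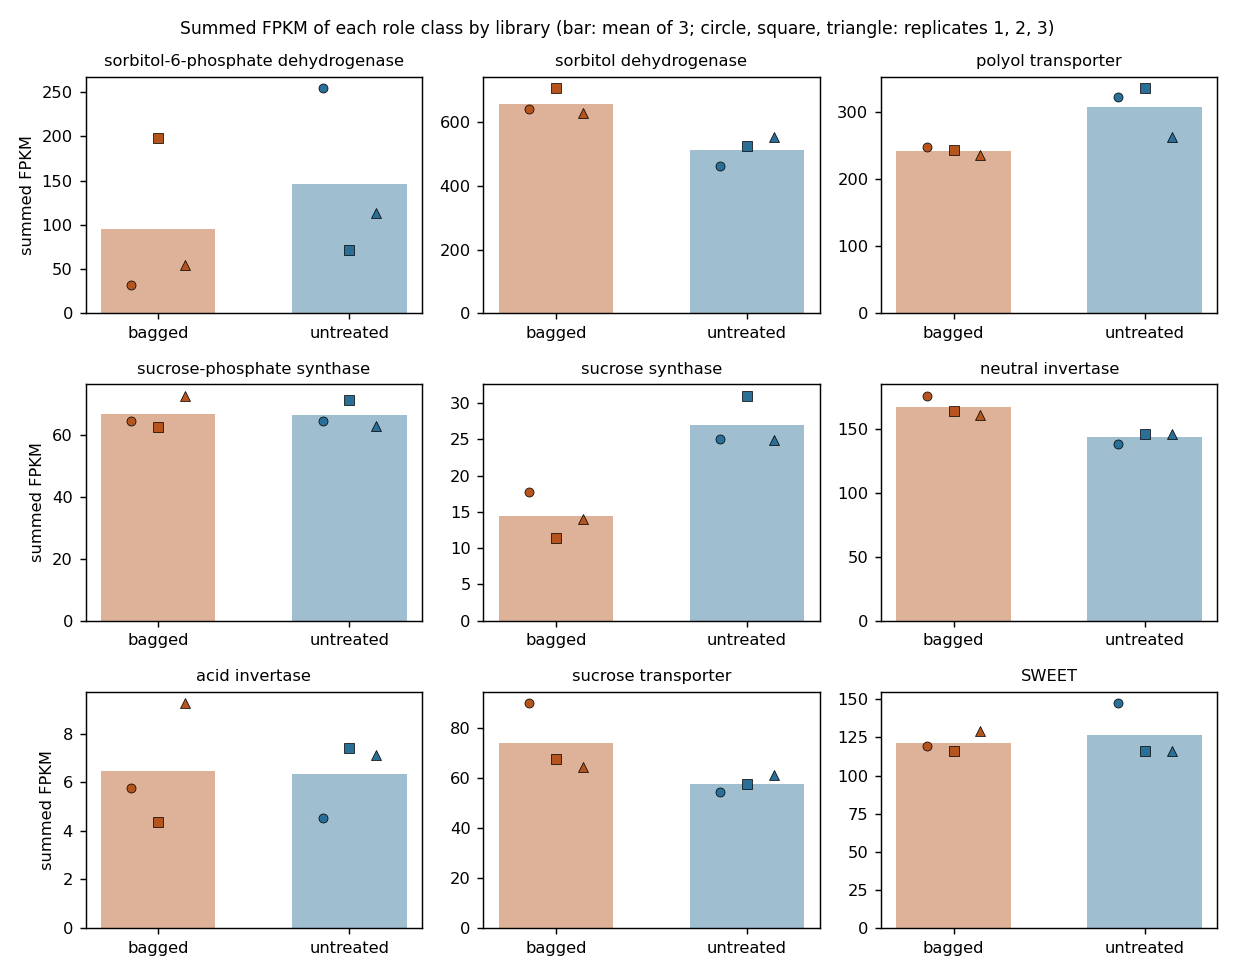
Summed FPKM (vertical axis, from 0) of each of the 9 role classes in each library, bagged left and untreated right, bars showing the mean of 3. Bagged sums lie above all untreated sums for sorbitol dehydrogenase, neutral invertase and sucrose transporters, and below them for polyol transporters and sucrose synthase. Sums are not scaled to the FPKM total of each library. For sucrose transporters the gap is small, 64.4 FPKM in bagged replicate 3 against 61.0 FPKM in untreated replicate 3.

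Sucrose-phosphate synthase, which commits hexose phosphates to sucrose, had sums that overlapped between the groups. None of its 7 tested genes was called by edgeR or by DESeq2, and none had an unadjusted p below 0.05. LOC103953884, with 65.0% to 71.8% of the class, had 46.0, 44.5 and 52.2 FPKM in bagged skin, against 41.9, 49.0 and 43.2 FPKM in untreated skin. The groups overlapped, and the log2 fold change was 0.08 ± 0.10. LOC103932736, which had the largest fold change above the level asked for naming, had 0.86, 0.88 and 1.13 FPKM in bagged skin, against 2.71, 0.78 and 0.85 FPKM in untreated skin. Untreated replicate 1 alone stood apart there (-0.60 ± 0.48), and the fold change was 0.22 without it. The class summed to 66.6 ± 5.33 FPKM in bagged and 66.2 ± 4.45 FPKM in untreated skin (SD, n = 3 each).

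Neutral invertases, which cleave sucrose in the cytosol, plastids and mitochondria, were well expressed. Of 15 genes 10 were tested and none was called by edgeR, with 2 at an unadjusted p below 0.05. LOC103967666, probable alkaline/neutral invertase D and the highest of the class, had 79.9, 81.2 and 66.5 FPKM in bagged skin, against 63.0, 64.7 and 61.6 FPKM in untreated skin. The groups did not overlap, although bagged replicate 3 was close to the untreated libraries (0.26 ± 0.09, edgeR adjusted p = 0.225). LOC103961265, alkaline/neutral invertase A of mitochondria, had 35.6, 21.6 and 35.8 FPKM in bagged skin, against 14.3, 16.3 and 23.8 FPKM in untreated skin. Bagged replicate 2 lay below untreated replicate 3 (0.77 ± 0.25, edgeR adjusted p = 0.18), and DESeq2 called it higher (adjusted p = 0.0234). The class summed to 176, 164 and 161 FPKM in bagged skin, against 138, 146 and 146 FPKM in untreated skin.

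Acid invertases, which cleave sucrose in the vacuole and the cell wall, were scarce. None of the 5 genes of the insoluble kind, which is bound to the wall, had more than 2 counts in any library. The whole class of 13 summed to 4.37 to 9.28 FPKM in bagged and 4.54 to 7.42 FPKM in untreated skin, and 4 genes were tested. LOC103935817, acid beta-fructofuranosidase-like and the highest, had 4.60, 3.26 and 7.59 FPKM in bagged skin, against 2.18, 3.65 and 4.03 FPKM in untreated skin, with overlap (0.64 ± 0.34, edgeR adjusted p = 0.418). LOC103963401, a soluble isoenzyme I-like gene, had 0.25, 0.21 and 0.91 FPKM in bagged skin, against 1.15, 2.62 and 1.995 FPKM in untreated skin. Its groups did not overlap, and bagged replicate 3 came nearest to the untreated libraries. The log2 fold change was -2.05 ± 0.57 (edgeR adjusted p = 0.129), with an adjusted p of 0.0327 without bagged replicate 3 and 0.00864 with DESeq2. LOC103932673, of the same description, was left out by the low-count filter. It had 1, 0 and 2 counts in bagged skin and 12, 28 and 6 counts in untreated skin, and the authors' deposited table gives it a log2 fold change of -3.90 with an adjusted p of 0.0296.

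Sucrose transporters, which load sucrose into cells together with protons, had 5 of 7 genes tested and none called by edgeR or DESeq2, with 2 at an unadjusted p below 0.05. LOC103964096, sucrose transport protein-like, had 39.4, 25.2 and 16.4 FPKM in bagged skin, against 13.8, 12.9 and 19.3 FPKM in untreated skin. Bagged replicate 3 lay within the untreated range (0.81 ± 0.31, edgeR adjusted p = 0.251). LOC103940043, of the same description, had 9.73, 6.62 and 3.72 FPKM in bagged skin, against 2.24, 3.24 and 4.22 FPKM in untreated skin (1.04 ± 0.37, edgeR adjusted p = 0.215). In both genes bagged replicate 1 was the highest library and bagged replicate 3 the lowest of its group. The SUC4-like genes, of the type found in the vacuole membrane, and SUC3 had fold changes from -0.16 to 0.20. The class summed to 89.9, 67.3 and 64.4 FPKM in bagged skin, against 54.4, 57.3 and 61.0 FPKM in untreated skin. The closest sums, 64.4 and 61.0 FPKM, come from bagged and untreated replicate 3, whose FPKM totals over all genes were 669800 and 624400. Sums were not scaled to these totals, and no tested gene of the class was without overlap in CPM.

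SWEET genes had 8 of 19 members tested and none called by edgeR. Fold changes were positive for 6 of them, with a median of 0.53. In 4 every bagged library was above every untreated one in CPM, which held for 10.7% of all genes. The class sums overlapped, with 119.6, 115.9 and 129.2 FPKM in bagged skin, against 147.7, 116.4 and 115.8 FPKM in untreated skin. The most abundant, the SWEET4-like gene LOC103949267, had 36.9, 30.9 and 46.5 FPKM in bagged skin, against 70.6, 44.7 and 48.0 FPKM in untreated skin. Bagged replicate 3 lay above untreated replicate 2 (-0.52 ± 0.21, edgeR adjusted p = 0.279). An NLP6-like gene overlaps it on the other strand with 7276 counts in all, against 9309 of its own. The SWEET2-like gene LOC103936492, of a family that sits in the vacuole membrane in Arabidopsis, had 11.4, 8.71 and 7.40 FPKM in bagged skin, against 5.17, 4.31 and 6.52 FPKM in untreated skin. There was no overlap (0.78 ± 0.22, edgeR adjusted p = 0.128), and DESeq2 called it higher (adjusted p = 0.0338).

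The other SWEET genes without overlap were rare. LOC103943446, SWEET2a-like, had 1.98, 1.24 and 1.52 FPKM in bagged skin, against 0.54, 0.62 and 0.98 FPKM in untreated skin (1.14 ± 0.36, edgeR adjusted p = 0.175). LOC103939538, SWEET4-like, rests on 11 to 16 counts in bagged and 2 to 7 counts in untreated libraries (1.72 ± 0.55, edgeR adjusted p = 0.179). LOC103943454, which follows LOC103943446 on scaffold NW_008988039.1 and was chosen after its values were seen, had a fold change of 0.82 ± 0.31. In 9 SWEET genes no library had a count.

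Genes of adjoining sugar metabolism outside the rule gave no call with edgeR. They numbered 223 in 13 lists, of which 145 were tested, and 26 of these (17.9%) had an unadjusted p below 0.05, beside 15.9% of all genes. DESeq2 called 8 of these 145 genes, 1 higher and 7 lower, beside 5.98% of all genes in that test, 3.01% higher and 2.97% lower. No gene of sucrose-phosphatase (4 tested), tonoplast sugar transporters (4), inositol and plastidic glucose transporters (12), UDP-glucose pyrophosphorylase and phosphoglucomutase (9) or invertase inhibitors (1) had an unadjusted p below 0.05. Hexokinases (7 tested), the fructokinase list (20) and starch breakdown (25) had 1 such gene each. ERD6-like transporters (5) and starch synthesis (23) had 2 each. The fructokinase list, drawn by that word in the description, also took in phosphofructokinase. Its 1 such gene, LOC103952760, is described as ATP-dependent 6-phosphofructokinase 4. The starch breakdown list also took in 2 inhibitor genes. Trehalose-phosphate enzymes, which tie sugar level to growth, had 5 higher and 1 lower of 12 at that level, and their median was 0.26 on the log2 scale.

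The raffinose family, which joins galactose to sucrose, had 2 higher and 7 lower of 15 tested genes at an unadjusted p below 0.05, with a median of -0.58. Its summed FPKM had the other direction, with 324, 321 and 375 in bagged skin, against 265, 289 and 281 in untreated skin. Chosen after its values were seen, LOC103953905, a probable galactinol--sucrose galactosyltransferase 6, had 133, 106 and 81.1 FPKM in bagged skin, against 73.0, 28.0 and 67.9 FPKM in untreated skin. No library overlapped between the groups, and it missed the threshold (0.91 ± 0.35, edgeR adjusted p = 0.251). Likewise chosen after its values were seen, LOC103965532, a probable galactinol--sucrose galactosyltransferase 2, had 7.42, 7.95 and 9.98 FPKM in bagged skin, against 12.5, 19.3 and 13.4 FPKM in untreated skin. The groups did not overlap (-0.84 ± 0.19, edgeR adjusted p = 0.0679), and DESeq2 called it lower (adjusted p = 0.00192). Of the 8 tested STP-type transporters, which take up hexoses, 3 were lower and 1 higher at that level. The sugar transport protein 5-like gene LOC103962199, likewise chosen after its values were seen, came nearest to the edgeR threshold. It had 0.32, 0.27 and 0.85 FPKM in bagged skin, against 2.02, 2.39 and 1.86 FPKM in untreated skin, with no overlap (-2.11 ± 0.43, edgeR adjusted p = 0.0509). DESeq2 called it lower (adjusted p = 0.000513).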

How the data were processed

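RNA was sequenced from fruit skin, 3 bagged and 3 untreated libraries. Reads were aligned with HISAT2 per the submitters' processing notes. Which program counted the reads, whether it used strand, and which build and annotation it read is not given in the sources used here. Positions are those of the deposited table. The deposited table holds raw read counts per gene and the FPKM made by the authors, with their log2 fold change and adjusted p-value per the file headers. It also holds the authors' p-value and a scaled signal per group, not used here.

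Counts were tested with edgeR 4.0.16 in R 4.3.3: filterByExpr (minimum count 10, minimum total 15), TMM scaling and the quasi-likelihood test on all genes without covariates, with Benjamini-Hochberg adjustment over 25139 genes. Fold changes are on the log2 scale, bagged over untreated, and an SE was obtained by dividing the size of a fold change by the root of its F statistic. FPKM served for levels and for sums over classes. The edgeR script was tested on counts simulated with the spread (dispersion) that edgeR fits as a trend over abundance. Of the 68 tested members, 17 had a dispersion over 2 times that trend, so the simulation does not cover genes as variable as these. Library totals were 15764049 to 19546285 counts, and tested members had a median SE of 0.25 (0.07 to 0.97). The SE and SD take in the spread between libraries, while floors cover counting error only.

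The members, lists and naming rule were chosen with earlier results of these data known. Named were all called members, in each class the member of highest FPKM and the uncalled one of largest fold change where the average log2 CPM reached 1, and members without overlap and with at least a 2-fold difference. Alternatives used RLE factors, library size alone, no filter, a CPM minimum of 1 in 3 libraries, DESeq2 1.42.0, limma 3.58.1 (genes reaching 1 FPKM in 3 libraries) with a pseudocount of 1 or 0.1 before log2, a replicate block, and leaving out each library.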

Additional observations from a re-analysis of the deposited data

How the results depend on the processing

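Members called lower numbered 3 under RLE factors, library size alone, both other filters and both limma fits, 7 with DESeq2 and 0 to 4 with 1 library left out. Members called higher numbered 0 in all of these except DESeq2, which gave 5. The median log2 fold change of the members was -0.14 with no low-count filter, and -0.16 to -0.057 over all libraries left out in turn. LOC103967955 changed sign with limma on log2(FPKM + 1) (-0.26) and log2(FPKM + 0.1) (-0.27), and over libraries left out (-0.997 to 0.56, negative without bagged replicate 2 or untreated replicate 2), and LOC103932736 did so over libraries left out (-0.91 to 0.22, positive without untreated replicate 1). The cause was not tested.

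The labels do not say that same-numbered libraries share trees or days, so the numbers were not taken to pair them. Deviations of same-numbered libraries correlated at -0.0444, 0.083 and 0.0567, which with 3 libraries per group cannot settle whether they are paired. With the replicate block 3 members were called lower and 0 higher, and LOC103967955 had a fold change of -0.32. LOC103950289 was not called there (edgeR adjusted p = 0.0613), and LOC103929477, putative polyol transporter 1, was called lower in its place. LOC103929477 had 27.4, 17.4 and 11.8 FPKM in bagged skin, against 42.7, 31.85 and 24.2 FPKM in untreated skin. Its groups overlapped (-0.81 ± 0.31, edgeR adjusted p = 0.263 without the block). Of all genes, 2.90% were called with the block, against 2.67% without it. Of the 58 untested members, 30 had no count, and the low-count filter removed the other 28, which had counts.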
